A study of Mus musculus with 8 samples.

Results

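Histone lysine demethylases remove methyl groups from the tails of histones, and the 10 genes described here encode autosomal members of the JmjC class. They were chosen by name, as Kdm2a, Kdm2b, Kdm3a, Kdm3b, Kdm4a, Kdm4b, Kdm4c, Kdm5a, Kdm5b and Kdm6b, and are 10 of the 37980 gene rows in the table. All 10 were present in the table and all 10 passed the filter on low values. RNA sequencing covered multipotent progenitors (MPPs), the short-lived cells of mouse bone marrow that give rise to all blood lineages. NA MPPs came from C57BL/6 mice carrying the NUP98-HOXA10hd fusion (NA), in which the homeodomain of HOXA10, its DNA-binding portion, is fused to a portion of the nucleoporin NUP98. In those mice, NA LSL/+; Vav-Cre, Vav-Cre switches the fusion on in blood cells. WT MPPs came from age-matched CD45.2 mice. MPPs of both groups were gated as Lin-, CD48-, ckit+, Sca1+, CD135+ and CD150-, and 1000 cells went into each of the 4 NA and 4 WT libraries, here NA1 to NA4 and WT1 to WT4. The sources used here do not give the age in weeks, nor whether libraries of a group came from separate mice, so p-values measure only the spread between these libraries.

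JmjC enzymes oxidise the methyl group with iron, oxygen and 2-oxoglutarate, and each subfamily prefers certain lysines. KDM2 proteins act on H3K36, KDM3 proteins on H3K9, KDM4 proteins on H3K9 and H3K36, KDM5 proteins on H3K4 and KDM6 proteins on H3K27. Methyl H3K4 and H3K36 are found at active genes, whereas methyl H3K9 and H3K27 are linked to silencing. KDM2B also carries a CXXC domain that binds unmethylated CpG islands and brings a variant Polycomb complex, PRC1.1, to them. In haematopoiesis KDM2B, KDM5B and the KDM6 proteins are known regulators of stem and progenitor cells.

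Promoter windows from RefSeq (GRCm38.p6, 250 bases before to 50 after a start) were matched for 5 members, Kdm2b, Kdm3a, Kdm4a, Kdm4c and Kdm5b. Kdm2b is shown because it has an upstream and an internal start, of which the internal one gives a short form without the JmjC domain. RefSeq gave 4 Kdm2b windows, of which 2 are printed, one from each end. An upstream window, chr5:122989050-122989349 on the minus strand, held 28 CpG dinucleotides, and a window at the internal start, chr5:122900318-122900617, held 47, against a median of 7.0 in 32851 windows. The other upstream window, chr5:122988458-122988757, held 18, and the other internal window, which overlaps the printed one, held 49. Capitals mark CpG. A gene-level value does not separate the 2 forms.
Kdm2b upstream: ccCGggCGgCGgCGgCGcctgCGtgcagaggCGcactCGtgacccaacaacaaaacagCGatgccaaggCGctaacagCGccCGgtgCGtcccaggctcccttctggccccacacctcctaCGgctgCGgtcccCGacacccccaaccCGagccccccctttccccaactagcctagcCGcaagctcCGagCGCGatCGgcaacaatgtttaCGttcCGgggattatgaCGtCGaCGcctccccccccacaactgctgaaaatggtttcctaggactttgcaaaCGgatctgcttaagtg
Kdm2b internal: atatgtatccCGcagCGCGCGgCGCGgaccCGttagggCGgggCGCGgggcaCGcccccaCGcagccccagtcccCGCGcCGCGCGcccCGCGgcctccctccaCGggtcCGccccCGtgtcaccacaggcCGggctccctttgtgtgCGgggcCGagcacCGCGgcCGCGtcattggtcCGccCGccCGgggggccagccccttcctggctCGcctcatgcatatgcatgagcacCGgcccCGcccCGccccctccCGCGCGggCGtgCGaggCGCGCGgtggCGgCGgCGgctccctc

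Kdm3a and Kdm4c are shown because both are known targets of the hypoxia-inducible factors, whose core motif is ACGTG or GCGTG. In these 2 windows capitals mark matches to ACGTG or GCGTG on either strand and any E-box that contains one. The windows printed are those that held a match, 1 of 3 for Kdm3a and 1 of 2 for Kdm4c, and the others of these genes held 0 ACGTG and 0 GCGTG. The printed Kdm3a window, chr6:71632868-71633167 on the minus strand, held 1 GCGTG, and the printed Kdm4c window, chr4:74251629-74251928 on the plus strand, held 4 ACGTG and 2 GCGTG. All 4 ACGTG matches lay in 2 CACGTG sites, each counted once per strand because CACGTG reads the same on both. CACGTG is also the E-box of the MYC and USF families. ACGTG was found on either strand in 19.6% of all windows, GCGTG in 32.4% and at least 1 of them in 43.8%. A match describes the letters of the window and is not evidence of binding.
Kdm3a: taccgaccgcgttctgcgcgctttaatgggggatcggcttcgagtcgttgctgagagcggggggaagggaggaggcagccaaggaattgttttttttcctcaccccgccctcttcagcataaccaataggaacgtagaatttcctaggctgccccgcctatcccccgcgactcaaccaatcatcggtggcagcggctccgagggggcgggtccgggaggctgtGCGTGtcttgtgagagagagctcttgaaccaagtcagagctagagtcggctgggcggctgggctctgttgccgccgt
Kdm4c: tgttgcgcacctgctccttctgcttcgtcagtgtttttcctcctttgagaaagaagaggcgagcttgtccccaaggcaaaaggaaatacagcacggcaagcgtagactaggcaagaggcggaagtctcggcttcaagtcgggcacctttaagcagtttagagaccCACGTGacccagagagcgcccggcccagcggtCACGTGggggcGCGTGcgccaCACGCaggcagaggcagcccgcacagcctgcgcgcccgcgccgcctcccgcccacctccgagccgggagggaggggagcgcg

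Values are normalised counts, that is, RSEM gene counts divided by 1 size factor per library. The libraries held an estimated 3877029 to 4916903 reads, and 1 read was worth close to 1 normalised count. Each gene was compared with limma on log2(normalised count + 1), and log2 fold changes are NA over WT on that scale. A gene was called when its Benjamini-Hochberg adjusted p over the 11451 genes tested was under 0.05. Of all genes tested, 17.9% were called, 10.1% higher and 7.87% lower in NA MPPs. The direction of that split depended on scaling: 56.1% of the 2053 calls were higher in NA MPPs, against 41.4% of 2240 calls when libraries were scaled to equal totals.

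Sex-linked transcripts separated the groups. Xist lay between 869 and 1285 normalised counts in WT MPPs and at most at 2.80 in NA MPPs, while Ddx3y lay between 281 and 668 in NA MPPs and at most at 0.888 in WT MPPs. Genotype and sex therefore cannot be told apart in any comparison between the groups. Kit, Flt3 and Cd34, the genes of c-kit, CD135 and CD34, lay above 1000 normalised counts in all 8 libraries and did not pass the test. Ly6a, which encodes Sca1, fell by 0.28 on the log2 scale (limma adjusted p = 0.0257, up to 0.163 when NA4 and WT4 were left out). Of 42 marker genes of 7 other blood cell types, 15 were tested. None was called higher and 2 were called lower, Hbb-bt and Mpo, beside 10.1% and 7.87% of all genes. The same lists gave 0 higher and 6 lower at an unadjusted p under 0.05. Hoxa10, whose homeodomain is in the fusion, rose by 1.21 on the log2 scale (limma adjusted p = 2.57e-05), and Nup98 was at 0.24 (adjusted p = 0.443). Cd48, the gene of a marker absent from the gated cells, was low in both groups, at most at 22.4 in NA MPPs and 83.8 in WT MPPs, and fell by 1.58 on the log2 scale (limma adjusted p = 0.00711, 0.0675 without NA4 and WT4). Slamf1, which encodes CD150, did not exceed 47.9. The summed erythroid markers lay between 35.4 and 64.9 in NA MPPs and between 138 and 224 in WT MPPs, and the summed macrophage markers between 48.0 and 70.9 and between 118 and 130. The summed neutrophil markers lay between 18.8 and 36 and between 39.1 and 369. In sorted pools fewer cells of a type and less RNA per cell cannot be told apart, and the part of these markers in the results was not tested. NA4 and WT4 were each close to a weighted sum of the other 3 libraries of their group: the excess variance around such a sum was 0.00230 in WT4 (0.00931 to 0.0235 in the other WT libraries) and 0.00865 in NA4 (0.0133 to 0.0382 in the other NA libraries). Without NA4 and WT4, the test called 524 genes in place of 2053. That fit had fewer libraries in each group, and no other pair of libraries was left out for comparison. The 2 called demethylases are given below with and without NA4 and WT4.

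Among the 10 demethylases, Kdm3b and Kdm6b rose in NA MPPs and no member fell. Kdm3b, which removes methyl groups from H3K9, was 5.16-fold higher by group means, and Kdm6b, the H3K27 demethylase also called JMJD3, was 2.32-fold higher. The other 8 members did not pass the test, with log2 fold changes from -0.50 to 0.29. The 2 of 10 called higher stand beside 10.1% of all genes, and the 0 of 10 called lower beside 7.87%. At an unadjusted p under 0.05, 3 members were higher (Kdm3b, Kdm6b and Kdm2a) and 1 was lower (Kdm4b). The NA and WT values of 3 members did not overlap, all 3 higher in NA MPPs, where 22.0% of all genes tested did not overlap, 11.5% higher and 10.5% lower. The median log2 fold change of the 10 members was -0.07, against -0.01 over all genes tested, with 4 members above and 6 below 0.

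**Figure D1:**
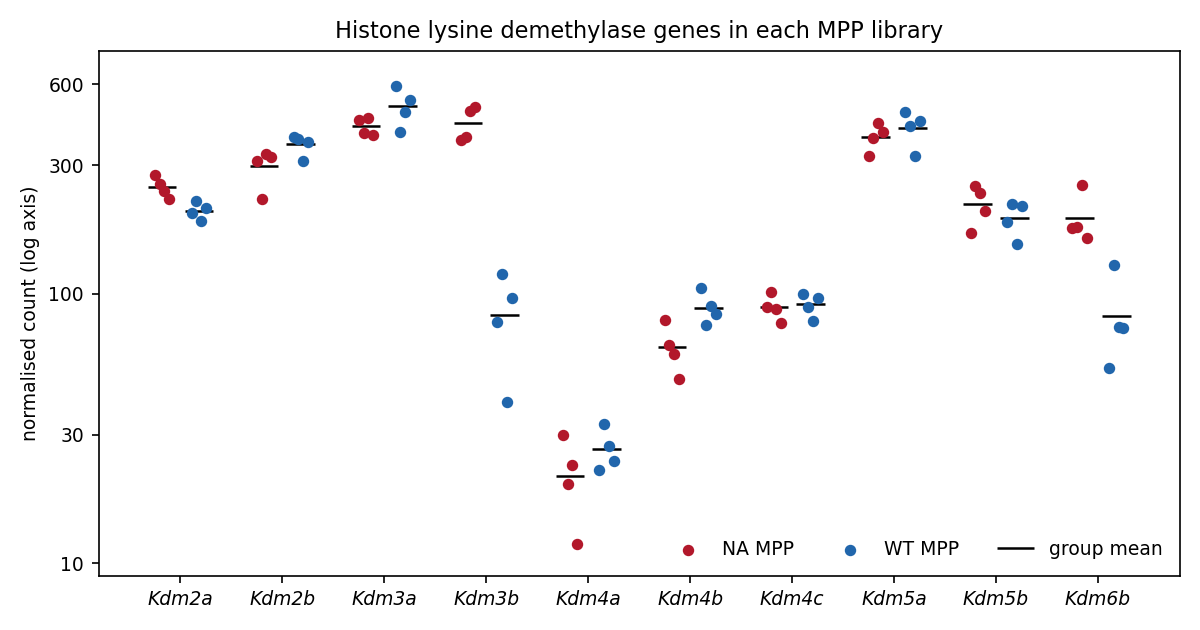
Normalised counts of the 10 demethylase genes (log axis) in each of the 4 NA and 4 WT MPP libraries, one point per library, with horizontal bars at the group means. Kdm3b lies between 372 and 496 in NA MPPs and between 39.8 and 119 in WT MPPs, Kdm6b between 162 and 254 and between 53.3 and 128, and the points of most other genes lie close together in both groups.

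Kdm3b (ENSMUSG00000038773, chromosome 18) had 372, 384, 476 and 496 normalised counts in NA1 to NA4, and 79.0, 119, 39.8 and 96.8 in WT1 to WT4. All 4 NA libraries lay well above all 4 WT libraries, and WT3 was the lowest of the 8. The means were 432 ± 63.5 and 83.6 ± 33.4 (SD, n = 4 each), and the log2 fold change was 2.45 (SE 0.26, 95% interval 1.89 to 3.0, limma adjusted p = 2.95e-05). Ranked by log2 fold change, Kdm3b stood at place 56 of the 11451 genes tested. The relative spread was wider in WT than in NA MPPs: the coefficient of variation was 40.0% in the 4 WT libraries, above that of 94.3% of the 2289 genes within 1.5-fold of its WT level, and 14.7% in the NA libraries. Without NA4 and WT4 the log2 fold change was 2.48 (adjusted p = 5.24e-04). Over 19 alternative analyses it ran from 2.13 to 2.65, with adjusted p from 7.18e-06 to 0.00344.

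Its paralog Kdm3a (ENSMUSG00000053470, chromosome 6), which also demethylates H3K9, did not pass the test. It had 442, 397, 449 and 390 normalised counts in NA1 to NA4, and 592, 399, 475 and 524 in WT1 to WT4. The WT mean was the higher of the 2, but WT2 lay among the NA values. The log2 fold change was -0.23 (95% interval -0.50 to 0.03, limma adjusted p = 0.205). The 2 paralogs were at nearly equal normalised counts in NA MPPs, where the log2 ratio of Kdm3b to Kdm3a was 0.03 ± 0.25 (SD, n = 4), and far apart in WT MPPs, where it was -2.65 ± 0.76. The ratio differed by 2.68 and did not overlap between groups. An exact two-sided permutation test over 70 assignments gave p = 0.0286, the smallest it can give, and 0.0857 after adjustment over the 6 paralog pairs compared. An adjusted p under 0.05 would need most of the 6 pairs at that smallest p, so the adjusted test could hardly be passed.

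The genes next to Kdm3b on chromosome 18, looked up after its values were seen, were called in 1 case, Egr1. Fam53c, its nearest neighbour on one side, had a limma adjusted p of 0.372 (log2 fold change 0.17), and Etf1, on the other side, one of 0.326 (log2 fold change -0.17). Reep2, which lies between Kdm3b and Egr1, stayed under 10 normalised counts in all 8 libraries and was not tested. Egr1, an early response transcription factor, rose by 2.64 on the log2 scale (adjusted p = 7.00e-07).

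Kdm6b (ENSMUSG00000018476, chromosome 11) had 176, 177, 254 and 162 normalised counts in NA1 to NA4, and 53.3, 128, 75.1 and 74.6 in WT1 to WT4. The groups did not overlap, NA3 stood above the other NA libraries and WT2 above the other WT libraries. The means were 192 ± 41.7 and 82.7 ± 31.8 (SD, n = 4 each), and the log2 fold change was 1.26 (SE 0.24, 95% interval 0.74 to 1.77, limma adjusted p = 0.00295). Ranked by log2 fold change, it stood at place 309. In the WT libraries its coefficient of variation was 38.5%, above that of 93.3% of the 2270 genes within 1.5-fold of its WT level. Without NA4 and WT4 the log2 fold change was 1.31 (adjusted p = 0.0268). Over 19 alternatives it ran from 1.07 to 1.49, with adjusted p from 4.55e-04 to 0.0268. The antisense gene Kdm6bos stayed at or under 1.13 normalised counts, and the neighbours Tmem88 (log2 fold change 0.04, adjusted p = 0.944) and Naa38 (-0.37, adjusted p = 0.275) did not pass the test.

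The other enzymes of the KDM6 subfamily are sex-linked. Kdm6a, the X-linked H3K27 demethylase also called UTX, had 108, 170, 163 and 161 normalised counts in NA1 to NA4, and 168, 156, 154 and 169 in WT1 to WT4. Apart from NA1 the values of both groups covered the same range, and the log2 fold change was -0.12 (limma adjusted p = 0.645). Its Y-linked partner Uty had 22.4, 62.0, 55.4 and 47.2 in NA MPPs and 0, 0, 1.14 and 0 in WT MPPs, which made it at least 15.4-fold higher in NA MPPs against a floor of 3 reads in each WT library.

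The early response genes, which cells induce within minutes of stimulation or handling, differed between the groups, and their order across libraries is given beside that of Kdm6b. Of 22 listed, 19 were tested, and 13 were called higher and none lower, beside 10.1% and 7.87% of all genes. The median log2 fold change of the 19 was 1.51. At an unadjusted p under 0.05, 16 were higher and 0 lower. The largest called change was that of Fos, at 3.37 on the log2 scale (limma adjusted p = 7.46e-06), and the smallest that of Zfp36, at 0.64 (adjusted p = 0.0222, up to 0.116 in the alternatives). The summed level of the list lay between 45712 and 56056 normalised counts in NA MPPs and between 6662 and 23349 in WT MPPs. NA3 was the highest NA library for 14 of the 19 genes and WT2 the highest WT library for 13. Both held for 11 of them, as they did for Kdm6b and for 11.7% of all genes tested. WT1 was the lowest WT library for 18, as it was for Kdm6b. No share of all genes was taken for the WT1 order, nor for NA3 or WT2 alone. The part of this response in the Kdm6b values was not tested.

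Of 8869 other genes, each averaging 50 normalised counts or more, the 3 whose centred log2 values across the 8 libraries lay closest to those of Kdm6b were Hspa5, Ier2 and Krt7. Their root mean square differences were 0.20, 0.22 and 0.22 on the log2 scale. Hspa5 is a chaperone of the endoplasmic reticulum, Ier2 is a member of the early response list and Krt7 is a keratin. For Kdm3b the closest were Minpp1, Ilf2 and Slc16a1, with differences of 0.26, 0.30 and 0.30. Minpp1 is an inositol polyphosphate phosphatase, Ilf2 an RNA-binding protein and Slc16a1 a lactate transporter. All 3 were lowest in WT3, as was Kdm3b, which their choice by closeness over the same 8 libraries favours.

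**Figure D2:**
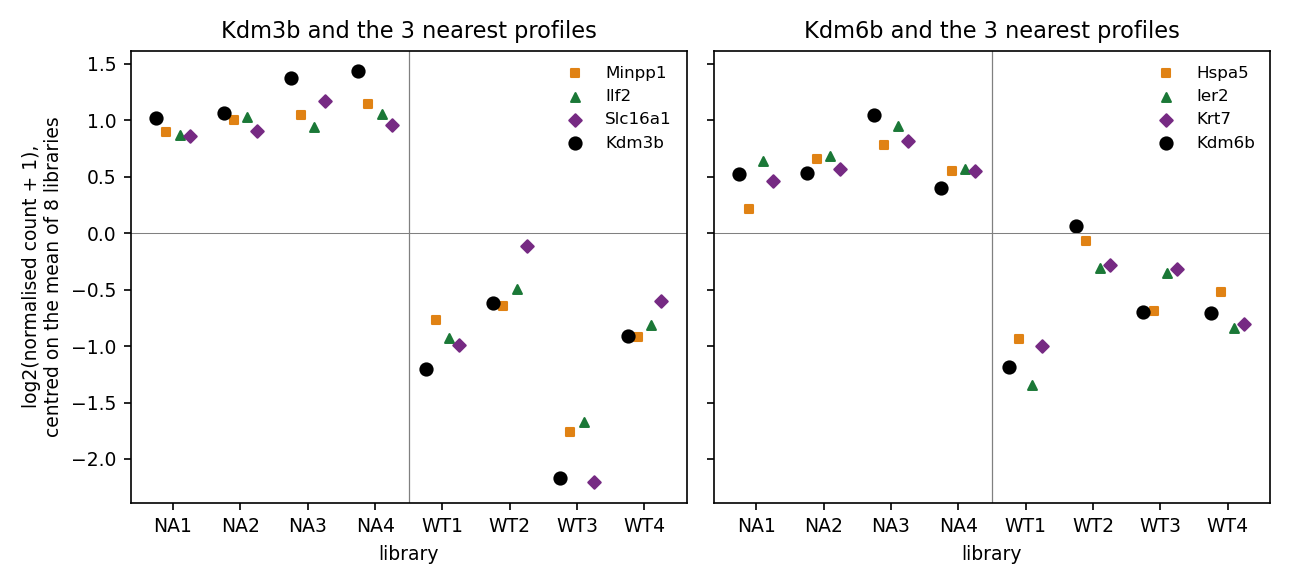
Log2(normalised count + 1), centred on the mean of the 8 libraries, for Kdm3b (left) and Kdm6b (right, both in black circles) with the 3 genes of most similar values (coloured symbols), one symbol per library. The symbols for Kdm3b and its 3 nearest genes are lowest in WT3, and those for Kdm6b and its 3 nearest genes are lowest in WT1 and highest in NA3. The choice of genes by closeness favours such shared extremes.

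The KDM2 pair, which demethylates H3K36, had log2 fold changes of opposite sign, neither of which passed the test. Kdm2a (ENSMUSG00000054611, chromosome 19) had 277, 255, 242 and 226 normalised counts in NA1 to NA4, and 199, 222, 187 and 208 in WT1 to WT4. Every NA value exceeded every WT value, though NA4 and WT2 were only just apart. The log2 fold change was 0.29 (95% interval 0.02 to 0.56) with a limma adjusted p of 0.122. Kdm2b (ENSMUSG00000029475, chromosome 5) had 313, 225, 331 and 322 in NA1 to NA4, and 384, 377, 313 and 367 in WT1 to WT4. NA2 lay below all other libraries, and WT3 lay within the NA range. Its log2 fold change was -0.29 (95% interval -0.58 to 0.01, adjusted p = 0.166). The log2 ratio of Kdm2b to Kdm2a was 0.24 ± 0.32 (SD, n = 4) in NA MPPs and 0.82 ± 0.09 in WT MPPs. All 4 NA ratios lay below the 4 WT ratios, with a difference of -0.58 (exact two-sided permutation p = 0.0286, 0.0857 after adjustment over 6 pairs).

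The partners that join KDM2B in PRC1.1 were measured beside it. Of 9 listed and tested, 3 were called higher and none lower, beside 10.1% and 7.87% of all genes. Their median log2 fold change was 0.09, and at an unadjusted p under 0.05 there were 3 higher and 2 lower. Skp1a, the SKP1 subunit that links KDM2B to ubiquitin ligases, rose by 1.26 on the log2 scale (limma adjusted p = 1.48e-04) and was the largest of the 3 called changes. Rnf2, the E3 ligase RING1B that places ubiquitin on H2A, was the smallest, at 0.46 (adjusted p = 0.0472), and lost its call in 11 of 19 alternatives, with an adjusted p of up to 0.245. Bcor and Pcgf1, the subunits that set PRC1.1 apart from other Polycomb complexes, did not pass the test, at log2 fold changes of 0.09 (adjusted p = 0.714) and -0.40 (adjusted p = 0.149).

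The 3 KDM4 members, which act on H3K9 and H3K36, were the lowest of the 10 in NA MPPs by normalised count. Kdm4a (ENSMUSG00000033326, chromosome 4) had 29.9, 19.7, 23.1 and 11.8 normalised counts in NA1 to NA4, and 22.2, 32.8, 27.3 and 24.0 in WT1 to WT4. NA1 lay above 3 of the 4 WT values, and NA2 and NA4 lay below all of them. With so few counts the 95% interval of its log2 fold change was wide, from -1.14 to 0.39 around -0.37 (limma adjusted p = 0.505). Kdm4b (ENSMUSG00000024201, chromosome 17) had 80.3, 64.9, 60.0 and 48.4 in NA1 to NA4, and 105, 77.0, 89.9 and 84.3 in WT1 to WT4. The groups overlapped only where NA1 exceeded WT2. Its log2 fold change of -0.50 (95% interval -0.95 to -0.04) was the lowest of the 10 members, and its limma adjusted p was 0.122, from 0.0349 before adjustment. Kdm4c (ENSMUSG00000028397, chromosome 4) had 89.6, 102, 87.7 and 78.0 in NA1 to NA4, and 100, 89.5, 79.7 and 96.8 in WT1 to WT4. Both groups covered the same range. The log2 fold change was -0.04 (95% interval -0.42 to 0.35, adjusted p = 0.907). None of the 3 ratios among the KDM4 genes passed the test of a difference, before or after adjustment. The differences were -0.12 for Kdm4b to Kdm4a, 0.33 for Kdm4c to Kdm4a and 0.46 for Kdm4c to Kdm4b. The exact two-sided permutation p was 0.629, 0.286 and 0.0857, and 0.629, 0.343 and 0.129 after adjustment over 6 pairs.

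Kdm3a, Kdm4b and Kdm4c are textbook targets of hypoxia-inducible factors, and other such targets were listed for comparison. Of the 13 tested, 2 were called higher and 1 lower, beside 10.1% and 7.87% of all genes. Their median log2 fold change was 0.11, with 3 higher and 1 lower at an unadjusted p under 0.05. Ndrg1, a stress-response gene, rose by 0.56 on the log2 scale (limma adjusted p = 0.00495, 0.0597 without NA4 and WT4). Ldha, the lactate dehydrogenase subunit, fell by 0.25 (adjusted p = 0.0361, up to 0.139 in the alternatives).

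The KDM5 members, H3K4 demethylases, did not pass the test. Kdm5a (ENSMUSG00000030180, chromosome 6) had 324, 378, 430 and 398 normalised counts in NA1 to NA4, and 475, 419, 326 and 440 in WT1 to WT4. NA1 and WT3 were nearly equal and lowest. The log2 fold change was -0.11 (95% interval -0.40 to 0.17, limma adjusted p = 0.599). Kdm5b (ENSMUSG00000042207, chromosome 1) had 169, 251, 237 and 203 in NA1 to NA4, and 185, 215, 153 and 212 in WT1 to WT4. The 2 groups overlapped over most of their range. Its log2 fold change was 0.17 (95% interval -0.18 to 0.51, adjusted p = 0.512). The log2 ratio of Kdm5b to Kdm5a was -0.84 ± 0.17 (SD, n = 4) in NA MPPs and -1.11 ± 0.17 in WT MPPs (exact two-sided permutation p = 0.0571, 0.114 after adjustment over 6 pairs).

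The remaining sex-linked demethylases were measured as well. Kdm5d, the Y-linked H3K4 demethylase, had 91.5, 43.2, 72.9 and 70.9 normalised counts in NA MPPs and 0 in every WT library, at least 22.9-fold higher against a floor of 3 reads in each WT library. The X-linked Kdm5c had 105, 98.7, 96.0 and 107 in NA1 to NA4, and 147, 146, 110 and 123 in WT1 to WT4. Every NA value was below every WT value, and its log2 fold change was -0.36 (limma adjusted p = 0.146). The X-linked Phf8, which demethylates H3K9 and H4K20, had a log2 fold change of 0.37 (adjusted p = 0.132).

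**Figure D3:**
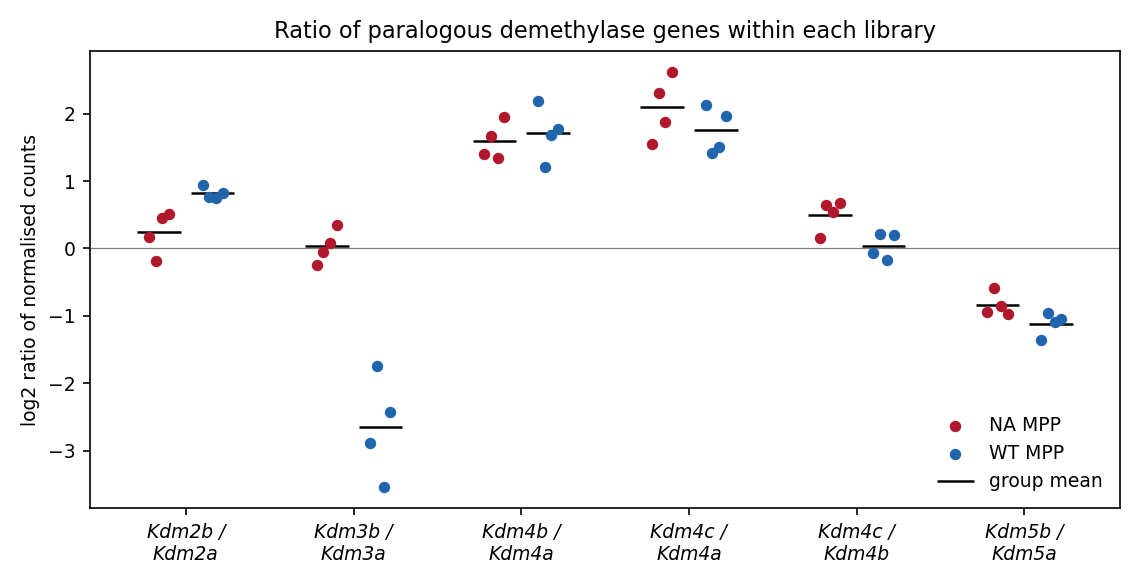
Log2 ratio of the normalised counts (each + 1) of 2 paralogous demethylase genes within a library, one point per library, with bars at the means of the 4 NA and 4 WT MPP libraries. The groups do not overlap for Kdm2b to Kdm2a (means 0.24 in NA and 0.82 in WT) and Kdm3b to Kdm3a (0.03 and -2.65), and overlap for the other 4 pairs.

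To compare levels between genes, normalised counts were divided by the length of the longest protein-coding transcript in GENCODE M21. Per kb, Kdm3a was the highest of the 10 in WT MPPs, at 102 ± 16.8 normalised counts per kb (SD, n = 4), followed by Kdm2b at 69.6 ± 6.24 and Kdm5a at 37.9 ± 5.84. The libraries of these 3 did not overlap with each other. Kdm2a, Kdm5b, Kdm4c and Kdm4b came next, between 23.8 and 19.4 per kb, and neighbours in that order overlapped. Kdm3b (13.1 ± 5.26) and Kdm6b (12.4 ± 4.78) overlapped with each other and, at their upper ends, with Kdm4b (16.8 to 22.9). Kdm4a had the lowest mean, 5.70 ± 1.0, but its libraries (4.76 to 7.04) overlapped with those of Kdm3b (6.26 to 18.7). In NA MPPs Kdm3a was again highest, at 86.4 ± 6.23, and Kdm3b stood second at 67.9 ± 9.97, a range that overlapped with that of Kdm2b (57.5 ± 9.53). Kdm6b stood at place 6 with 28.9 ± 6.27. With the union of all exons as length, Kdm3b went from place 9 in WT to place 2 in NA MPPs, and Kdm6b from place 7 to place 3. These NA places were not distinct, because the NA libraries of Kdm3b, Kdm6b, Kdm2b and Kdm5a all overlapped with each other. The NA means of Kdm6b (27.6) and Kdm2b (27.4) were nearly equal on that length. In WT MPPs Kdm6b overlapped with Kdm2a and Kdm5b, the genes next to it in order, and Kdm3b with Kdm4a.

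Outside the 10 members, Kdm1a, the flavin-dependent H3K4 demethylase LSD1, rose in NA MPPs. It had 845, 817, 761 and 803 normalised counts in NA1 to NA4, and 477, 607, 315 and 447 in WT1 to WT4. No WT library reached the lowest NA library, and WT3 was the lowest, as it was for Kdm3b. The means were 806 ± 35.0 and 462 ± 120 (SD, n = 4 each). The log2 fold change was 0.84 (SE 0.15, limma adjusted p = 0.00209, 0.0257 without NA4 and WT4). Kdm1b, its paralog LSD2, had a log2 fold change of -0.68 that did not pass the test (adjusted p = 0.0715), though it was called lower in 2 of 19 alternatives (adjusted p down to 0.0332). Of 11 listed partners of KDM1A, 1 was called higher and 2 lower, beside 10.1% and 7.87% of all genes. Their median was -0.07, with 1 higher and 4 lower at an unadjusted p under 0.05. Rcor3, a CoREST paralog, rose by 0.61 on the log2 scale (adjusted p = 0.00567, 0.0875 without NA4 and WT4), and Zmym3, a zinc finger protein of the complex, fell by 0.59 (adjusted p = 0.00518).

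Of the 13 other autosomal genes of the LSD1 and JmjC families, 11 were tested. Kdm1a was called higher and Kdm8 lower, beside 10.1% and 7.87% of all genes. Kdm8, a JmjC protein, had 8.40, 8.46, 0.923 and 8.27 normalised counts in NA1 to NA4, and 19.5, 30.6, 27.3 and 17.8 in WT1 to WT4. The groups did not overlap, but these were few reads. Its log2 fold change was -1.94 (limma adjusted p = 0.0298), and the call was lost in 8 of 18 alternatives, with an adjusted p of up to 0.109. Jmjd6, a JmjC oxygenase of arginine and lysine residues, was at 0.45 (adjusted p = 0.0695, called higher in 3 of 19 alternatives with values down to 0.0174), and Hspbap1, a JmjC protein that binds HSP27, at -0.99 (adjusted p = 0.0630, called lower in 3 of 18 alternatives with values down to 0.0149). Jmjd1c, a relative of Kdm3a and Kdm3b, was at 0.03 (adjusted p = 0.899), and Jarid2, the catalytically inactive partner of Polycomb complex PRC2, at 0.25 (adjusted p = 0.145). Kdm7a and Phf2, of the PHF2 and PHF8 subfamily, were at 0.14 and -0.34, and Riox1 and Riox2, ribosomal oxygenases, at -0.07 and 0.20, none of them called. Kdm4d did not exceed 4.55 normalised counts and Hr, a relative of the KDM3 genes, was at 0 in all 8 libraries, so neither was tested.

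**Figure D4:**
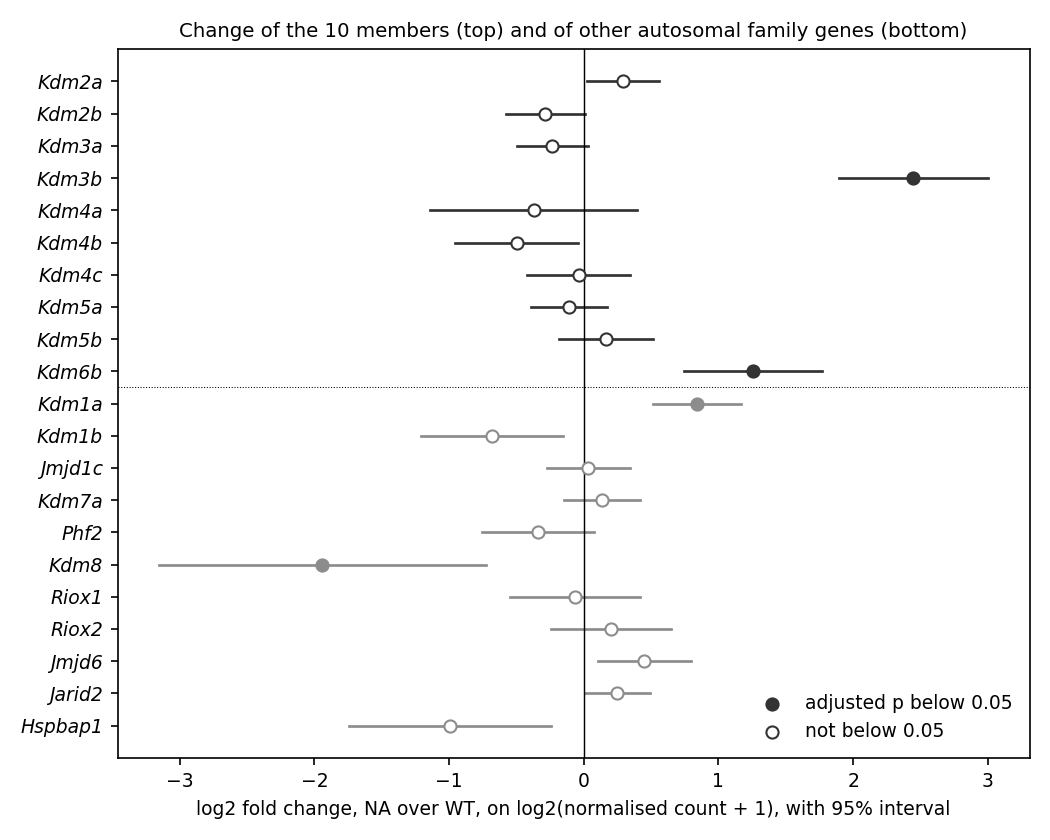
Log2 fold change, NA over WT, on log2(normalised count + 1), with 95% intervals, for the 10 members (black) and 11 other autosomal LSD1 and JmjC family genes (grey). Filled symbols have a limma adjusted p under 0.05: Kdm3b at 2.45, Kdm6b at 1.26, Kdm1a at 0.84 and Kdm8 at -1.94.

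Lists of genes that act on the same marks or share the cofactor were also read. Over all of these lists together, that is, the other LSD1 and JmjC family genes, the methyltransferases, the partners of KDM2B and KDM1A, the enzymes of 2-oxoglutarate, other oxygenases, the hypoxia targets and the early response genes, 27 genes were called higher and 8 lower, against 13 and 1 without NA4 and WT4. With all 8 libraries, the early response list held 13 of the 27 higher calls and none of the lower. Of all genes tested, 10.1% (1152) were called higher and 7.87% (901) lower with all 8 libraries. Calls over all genes also fell without NA4 and WT4, to 379 higher and 145 lower. No share was taken over these lists together.

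Of 21 methyltransferases that write the same marks, all of them tested, 2 were called higher and none lower, beside 10.1% and 7.87% of all genes. Both calls were among the 6 H3K4 methyltransferases. At an unadjusted p under 0.05, 3 of the 21 were higher and 1 lower. Kmt2a, the H3K4 methyltransferase MLL1, had 796, 867, 808 and 876 normalised counts in NA1 to NA4, and 566, 629, 420 and 560 in WT1 to WT4. Its groups did not overlap, and the log2 fold change was 0.63 (limma adjusted p = 0.00225). Setd1b, another H3K4 methyltransferase, was at 0.86 (adjusted p = 0.0273) and lost its call in 5 of 19 alternatives, with an adjusted p of up to 0.171. None of 6 H3K9, 2 H3K27 and 7 H3K36 methyltransferases was called.

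The enzymes that make or use 2-oxoglutarate, succinate or fumarate set the supply of cofactor and inhibitors for JmjC enzymes. Of 18 tested, 1 was called higher and 2 lower, beside 10.1% and 7.87% of all genes. Their median log2 fold change was -0.06, with 2 higher and 4 lower at an unadjusted p under 0.05. Idh1, the cytosolic isocitrate dehydrogenase, rose by 0.49 on the log2 scale (limma adjusted p = 0.0244, up to 0.184 in the alternatives). Idh2, its mitochondrial counterpart, fell by 0.36 (adjusted p = 0.0292, up to 0.164). Idh3g, a subunit of the NAD-dependent enzyme, fell by 0.33 (adjusted p = 0.00719, 0.0796 without NA4 and WT4).

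Other oxygenases that use 2-oxoglutarate moved in both directions. Of 25 tested, 4 were called higher and 2 lower, beside 10.1% and 7.87% of all genes. Their median was -0.06, with 4 higher and 4 lower at an unadjusted p under 0.05. Tet2, which oxidises 5-methylcytosine in DNA, had 113, 101, 161 and 111 normalised counts in NA1 to NA4, and 44.4, 30.6, 39.8 and 41.7 in WT1 to WT4. It showed the largest rise of the list, at 1.60 on the log2 scale (limma adjusted p = 2.98e-04), and its lowest NA value was above its highest WT value. P4htm, a transmembrane prolyl hydroxylase, showed the largest fall, by 1.58 (adjusted p = 0.0148, 0.0823 without NA4 and WT4).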

How the data were processed

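RNA from 4 NA and 4 WT MPP libraries of 1000 sorted cells was reverse transcribed, amplified and tagmented (Nextera XT). Per the labels, the authors' processing notes name bcl2fastq, RSEM, DESeq2 and mm10, of which RSEM gave the gene values and DESeq2 the study's own test. Versions, annotation and strand use are not given in the sources used here. The name of the deposited file says counts. Its values are a signal, normalised by the authors: RSEM output after division by a size factor for every library. Depending on the library, from 98.2% to 98.8% of values between 0.5 and 50 were within 0.02 of a whole multiple of a step, which was used only for depth and for floors of 3 reads. Counts of amplified cDNA are not independent molecules, so floors cover counting error only.

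The design had assumed counts, and a limma test on the log2 scale was used in their place. Gene names, chromosomes and lengths came from GENCODE M21, which named 32916 of 37980 rows and 93.8% of rows above 0. The filter kept genes that reached 10 normalised counts in 4 or more of the 8 libraries. The test used R 4.3.3 and limma 3.58.1, a variance trend, log2(value + 1) and no covariate. The test was run on simulated data with known changes beforehand. Ratios of 6 paralog pairs were compared by exact two-sided permutation over 70 assignments (Python 3.11.15, numpy 2.4.6). Groups were taken from sample titles.

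The members and gene lists were chosen with earlier results of these data known. Named genes were all 10 members, all other LSD1 and JmjC family genes, all called methyltransferases, the highest and lowest signed log2 fold changes among the called genes of each further list, the 3 nearest profiles of each called member, and the fusion, sort and sex genes. Neighbouring genes of called members, subunits singled out in PRC1.1, and Idh3g were added after their values were seen. The alternatives were other pseudocounts (0.5 and 5), filters, scalings, covariates and left-out libraries.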

Additional observations from a re-analysis of the deposited data

Results flagged for a closer look

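Kdm6b in NA3 lay at 254 normalised counts, apart from the other 3 NA libraries at 162 to 177: the gap to the nearest was 0.838 of the group's range, above the 95% critical value of Dixon's test for 4 samples. Chance flags about 1 in 20 groups, and 20 groups (10 members in NA and WT MPPs) were examined, so about 1 was expected. Without NA3 the log2 fold change of Kdm6b was 1.11 (limma adjusted p = 0.00937). NA3 was also the highest NA library for 14 of the 19 early response genes tested, and the part of that in the Kdm6b value was not tested.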

How the results depend on the processing

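The count of members called higher (2) and lower (0) was the same under all 19 alternatives, and Kdm3b and Kdm6b were the members called in each. The other 8 members were called in none, and Kdm4a was not tested with a minimum mean of 50. The DESeq2 and edgeR tests planned as alternatives were not run, because the deposited values are not counts. The number of genes called, 2053, fell to 524 without NA4 and WT4, and ran from 1125 (without NA4) to 2176 when 1 library was left out, with 1279 without WT4. Of the related lists, the other LSD1 and JmjC family genes included, the 27 higher calls became 13 without NA4 and WT4 and ran from 19 to 29 with 1 library left out. The 8 lower calls became 5 without the filter on low values, 4 with depth class as covariate, 1 without NA4 and WT4, and ran from 3 (without NA4) to 12 (without NA3) with 1 library left out. Over all genes, the 1152 higher calls became 379 without NA4 and WT4 and ran from 675 to 1186 with 1 library left out. The 901 lower calls over all genes became 704, 664 and 145 in the same 3 settings, and ran from 450 (without NA4) to 1001 (without NA3). The cause was not tested. Calls were gained in 8 cases, 2 for Kdm1b (lower), 3 for Jmjd6 (higher) and 3 for Hspbap1 (lower). Directions that reversed belonged to genes and ratios without a call. The log2 fold change of Kdm4c was 0.052 without NA4 and WT4 and ran from -0.102 to 0.0239 with 1 library left out. That of Jmjd1c was -0.0354 with libraries scaled to equal totals, -0.1055 with the trend on GC content removed and from -0.061 to 0.1515 with 1 library left out. With the GC trend removed Kdm7a was at -0.0418 and Riox1 at 0.1574. With 1 library left out Riox1 ran from -0.1834 to 0.064, Kdm6a from -0.1875 to 0.0282, Slamf1 from -1.09 to 0.0338 and the log2 ratio of Kdm4b to Kdm4a from -0.2935 to 0.0346. The GC alternative and the exon union lengths were chosen after seeing the data. With 3 libraries against 3, no exact test could give a p under 0.1.

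A replicate block on the library numbers gave 2004 genes, 2 members higher and 0 lower, 31 higher and 9 lower calls of the related lists, and called Jmjd6 (adjusted p = 0.0494). The numbers were not found to pair the libraries. Deviations of same-numbered NA and WT libraries correlated at 0.0874, 0.0271, 0.0131 and 0.1578 across genes, not all above 0.1. NA1 and NA4 correlated best with WT1 and WT4, whereas NA2 and NA3 did not correlate best with their own numbers. The check cannot show that the libraries were unpaired. In the exact sign-flip test of the paired paralog ratios the smallest possible p is 0.125.

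Depth limited Kdm4a, Kdm8 and Hspbap1, which had no more than 32.8 normalised counts in any library.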
